A study of Mus musculus with 11 samples.

Results

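The expression of 9 genes of iron storage and heme metabolism was compared between germ-free and humanized mouse colon. The genes were taken by name from the deposited count table: Hmox1, Blvra and Blvrb of heme breakdown, Fth1 and Ftl1 of ferritin, Tfrc and Cybrd1 of iron entry, and Alas1 and Fech of heme synthesis. They are 9 of the 43346 genes in the table, and all 9 were among the 19863 genes that passed the low-expression filter. RNA came from the colon of 5 germ-free and 6 humanized Swiss Webster males aged 8 to 10 weeks. Humanized mice started as germ-free mice and were given 300 μL of stool suspension by gavage at 4 to 5 weeks of age, all from the same healthy human donor, so the group represents 1 human microbiota. Both groups lived in isolators, singly housed and on the same autoclaved diet, and whether germ-free mice had a mock gavage is not given in the sources used here. Polyadenylated RNA of colonic tissue was sequenced, and each sample is a separate mouse.

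Iron in a cell is either used, stored or exported. Ferritin, a hollow shell of heavy and light chains, stores it, transferrin receptor brings it in with transferrin, and ferroportin is the only known cellular iron exporter. Heme is built in mitochondria and cytosol by a chain of enzymes that starts with aminolevulinate synthase and ends with ferrochelatase, which inserts the iron. Heme oxygenase opens the ring again and releases iron and biliverdin, which biliverdin reductase turns into bilirubin. In the colon the epithelium is exposed to dietary and luminal heme and iron, and tissue macrophages recycle heme from red cells. When iron is short, iron regulatory proteins bind a hairpin called the iron-responsive element (IRE). Bound before the coding sequence, as in ferritin, they block translation, and bound after it, as in the transferrin receptor, they protect the mRNA from decay.

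The IREs are shown because 3 of the 9 genes carry the hairpin, the ferritin genes before and Tfrc after the coding sequence. GENCODE M21 transcripts (build GRCm38, the same as mm10) were searched on the sense strand for the loop CAGTGN with 5 bases before it that pair with the 5 bases after it, allowing G-U pairs, and an unpaired C before the stem. Capitals mark the loop, and each window is 30 bases, written 5′ to 3′ on the strand of the gene.
Fth1, 5′ UTR, chr19:9982732-9982761, plus strand: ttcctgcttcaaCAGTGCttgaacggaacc
Ftl1, 5′ UTR, chr7:45459778-45459807, minus strand: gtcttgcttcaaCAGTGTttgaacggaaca
Slc40a1, 5′ UTR, chr1:45925464-45925493, minus strand: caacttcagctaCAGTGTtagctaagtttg
Tfrc match 1, 3′ UTR, chr16:32631219-32631248, plus strand: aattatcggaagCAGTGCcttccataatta
Tfrc match 2, 3′ UTR, chr16:32631598-32631627, plus strand: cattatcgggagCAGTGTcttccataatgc
Tfrc match 3, 3′ UTR, chr16:32631663-32631692, plus strand: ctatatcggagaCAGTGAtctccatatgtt
Tfrc match 4, 3′ UTR, chr16:32631710-32631739, plus strand: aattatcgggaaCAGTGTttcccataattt
The ferritin windows share 26 of 30 bases with each other. The Tfrc windows share 18 to 25 of 30 bases among themselves. Slc40a1, the ferroportin gene, is not among the 9 and is shown because it also carries the element before its coding sequence. The pattern was found in the 5′ UTR of 0.142% and in the 3′ UTR of 0.584% of 21901 protein-coding genes. No coding transcript of the other 6 genes held a match.

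Between 49097005 and 64148538 reads per germ-free mouse and between 39125290 and 54219854 per humanized mouse were counted on genes. Epithelial markers were abundant in every mouse, with summed TMM-normalized CPM of the 11 markers from 9272 to 12381 in germ-free and from 10603 to 14801 in humanized mice. Of these 11, Krt18, Lgals4 and Elf3 rose and 8 were not called, with a median LFC of 0.27 and a lowest of 0.05, and their part in the modest rises described here was not tested. Smooth muscle and fibroblast markers were lower in humanized mice, in which 11 of 12 and 6 of 8 genes fell by the exact test and 5 and 4 by the quasi-likelihood test. Humanized mouse 5 stood apart with the lowest fibroblast sum, 131 CPM against 496 to 1048 in the other humanized mice. In such whole tissue, fewer cells of a type and less RNA per cell cannot be told apart. Log2-fold changes (LFC) are humanized over germ-free and are TMM-normalized. FDR values are those of edgeR's exact test over all 19863 genes, with calls at FDR below 0.01, and standard errors (SE) come from edgeR's quasi-likelihood fit. Levels are RPKM, which scale reads to gene length (as deposited) and library size, as mean ± SD with n = 5 germ-free and n = 6 humanized mice. Over all tested genes, 19.3% were called (9.20% higher and 10.1% lower in humanized mice), and for 18.4% no value of one group lay within the range of the other.

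Of the 9 genes, Hmox1, Fth1, Ftl1 and Blvrb rose in humanized mice, Cybrd1 fell, and Tfrc, Alas1, Fech and Blvra were not called. The median LFC of the 9 was 0.20, and that of all tested genes was 0.01. Beside the 19.3% of all genes that were called, 5 of these 9 were, and the same 5 were those whose groups did not overlap. The 9 genes were chosen with earlier results of these data known, so no excess is read from these counts. Without humanized mouse 5 the same 5 genes were called. The call of Cybrd1 was lost on leaving out any of several other mice and with the quasi-likelihood test, as given below. The largest rise was that of Hmox1, 2.58-fold, and the ferritin genes rose 1.60-fold (Fth1) and 1.54-fold (Ftl1).

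**Figure D1:**
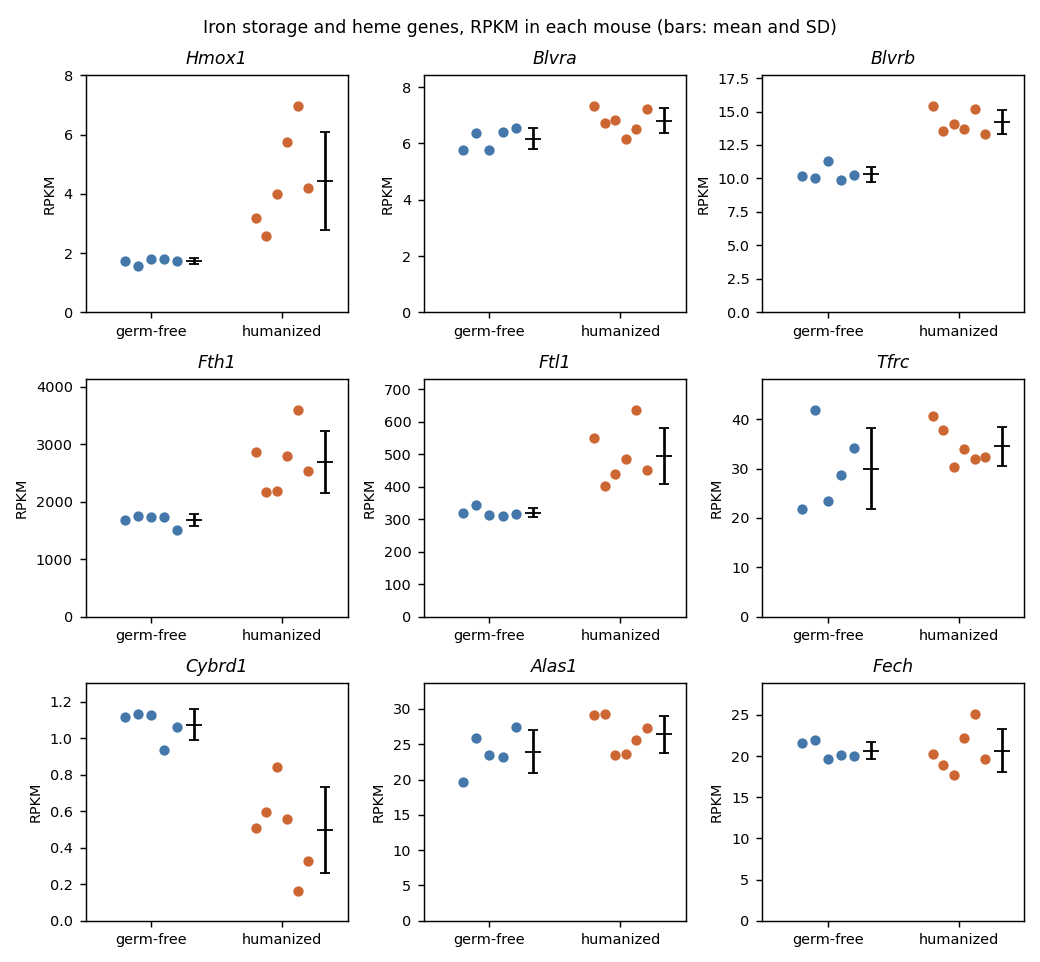
RPKM (vertical axes, from 0) of the 9 genes in each of 5 germ-free (blue) and 6 humanized (orange) mice, with mice in order of their number and a bar for the mean and SD. For Hmox1, Fth1, Ftl1 and Blvrb every humanized mouse lies above every germ-free mouse, for Cybrd1 every one lies below, and the groups overlap for Tfrc, Alas1, Fech and Blvra.

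Hmox1 encodes heme oxygenase 1, the inducible enzyme that opens the heme ring, and lies on chromosome 8 from 75093591 to 75100596 (mm10). In mice 1 to 5 of the germ-free group its level was 1.73, 1.56, 1.80, 1.82 and 1.72 RPKM. Humanized mice 1 to 6 had 3.18, 2.57, 3.98, 5.77, 6.98 and 4.20 RPKM. The germ-free values lay within 1.17-fold of each other, while the highest humanized mouse had 2.72 times the lowest. Mean levels were 1.72 ± 0.102 and 4.45 ± 1.65 RPKM (LFC = 1.37, SE 0.23, FDR = 1.28e-06). The counts behind these values ran from 176 to 717 reads per mouse. Mouse 5 was the highest, and without it the LFC was 1.19 (FDR = 3.48e-07).

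The other heme oxygenase gene, Hmox2, encodes the constitutive enzyme. It had 14.5 ± 0.889 RPKM in germ-free and 15.4 ± 0.564 RPKM in humanized mice (LFC = 0.09, SE 0.05, FDR = 0.378). On the deposited lengths, Hmox2 mRNA was above Hmox1 mRNA in both groups.

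Macrophages are a known site of Hmox1 expression, so 12 macrophage markers were read beside it. Of the 10 that were tested, Cd14 rose, Mrc1 fell (quasi-likelihood FDR = 0.0172, not called) and 8 were not called, with a median LFC of −0.48. Their summed CPM was 180 to 217 in germ-free and 143 to 234 in humanized mice, with the most reads from Cd14, and Marco had at most 2 reads in any mouse. Humanized mouse 5, highest in Hmox1, had the lowest macrophage sum. Hmox1 CPM per 1000 CPM of macrophage markers was 17.3 to 18.8 in germ-free and 24.3 to 106 in humanized mice, without overlap, but this sum is led by Cd14, which itself rose. The part of macrophages in the rise of Hmox1 was not tested.

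Biliverdin reductase has an A form, which makes bilirubin from the biliverdin of heme oxygenase, and a B form, which is also a flavin reductase. Blvrb spans 27447978 to 27466144 of chromosome 7. Germ-free mice had 10.2, 10.0, 11.3, 9.88 and 10.2 RPKM of it. Humanized mice had 15.4, 13.5, 14.1, 13.7, 15.2 and 13.3 RPKM. Every humanized mouse was above every germ-free mouse, and both groups were tight. The means were 10.3 ± 0.564 and 14.2 ± 0.892 RPKM, a rise of 37.4% (LFC = 0.46, SE 0.07, FDR = 2.13e-05). Scaling the libraries to the 11 epithelial markers in place of TMM ended this call (LFC = 0.21, FDR = 0.284), as did total counts (LFC = 0.27, FDR = 0.0166).

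Blvra spans 127070665 to 127097084 of chromosome 2. It had 6.17 ± 0.378 RPKM in germ-free and 6.80 ± 0.442 RPKM in humanized mice (LFC = 0.14, SE 0.07, FDR = 0.314). Germ-free mice ranged from 5.75 to 6.54 RPKM and humanized mice from 6.16 to 7.35 RPKM. The nominal 95% interval of its LFC, from a normal approximation with the SE, ran from −0.00017 to 0.28. This interval lies below the value of Blvrb, but with so few mice the approximation makes it too narrow, as it does for the other genes. The difference between the reductase genes was not tested.

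Ferritin mRNA was abundant. Fth1 encodes the heavy chain, which oxidizes the iron, and lies on chromosome 19 from 9982703 to 9985092. Germ-free mice had 1672, 1751, 1731, 1741 and 1514 RPKM. Humanized mice 1 to 6 had 2856, 2163, 2194, 2797, 3599 and 2533 RPKM. The lowest humanized mouse was above the highest germ-free mouse. Mean levels were 1682 ± 98.8 and 2691 ± 532 RPKM (LFC = 0.68, SE 0.13, FDR = 3.03e-06). On the deposited lengths, Fth1 was at the 99.9 percentile of all tested genes in both groups.

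Ftl1 encodes the light chain, which aids the formation of the iron core, and lies on chromosome 7 from 45457944 to 45459884. It had 318, 343, 313, 311 and 315 RPKM in germ-free mice. Humanized mice had 550, 401, 439, 485, 637 and 450 RPKM. Again the groups did not overlap, and the order of humanized mice was led by mice 5 and 1, as for Fth1. The means were 320 ± 13.1 and 494 ± 86.0 RPKM (LFC = 0.63, SE 0.11, FDR = 1.37e-06). Under epithelial scaling Ftl1 was not called (LFC = 0.36, FDR = 0.0122) while Fth1 was (LFC = 0.40, FDR = 0.00744).

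Reads of Ftl1 are hard to assign, since 13 other annotated genes share at least 101 bases at 95% identity or more with its transcript. Ftl1-ps1, a copy 99.6% identical over 910 bases, had 6169 to 11093 reads per mouse, and Gm22133, a small RNA gene annotated inside Ftl1, had 6190 to 12668. Summing Ftl1 with the copies in the table gave the same LFC of 0.63 (FDR = 8.67e-07). No such copy was found for Fth1. Together, Fth1 and Ftl1 held 0.189 to 0.211% of all counted reads in germ-free mice and 0.228 to 0.348% in humanized mice, a share that uses no TMM factor.

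The chains assemble into shells of varying makeup, so their ratio was compared within mice. There were 3.40, 3.30, 3.58, 3.62 and 3.11 Fth1 reads for each Ftl1 read in germ-free mice. Humanized mice had 3.36, 3.48, 3.23, 3.72, 3.65 and 3.64. The values of the groups were intermingled. The log2 ratio was 1.76 ± 0.09 (SD, n = 5) in germ-free and 1.81 ± 0.08 (SD, n = 6) in humanized mice (two-sided exact permutation test, p = 0.374 with 462 splits of the mice). A difference of 0.05 was thus within the spread between mice, and the level of ferritin mRNA differed between the groups without a detectable difference in the ratio of its chains.

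**Figure D2:**
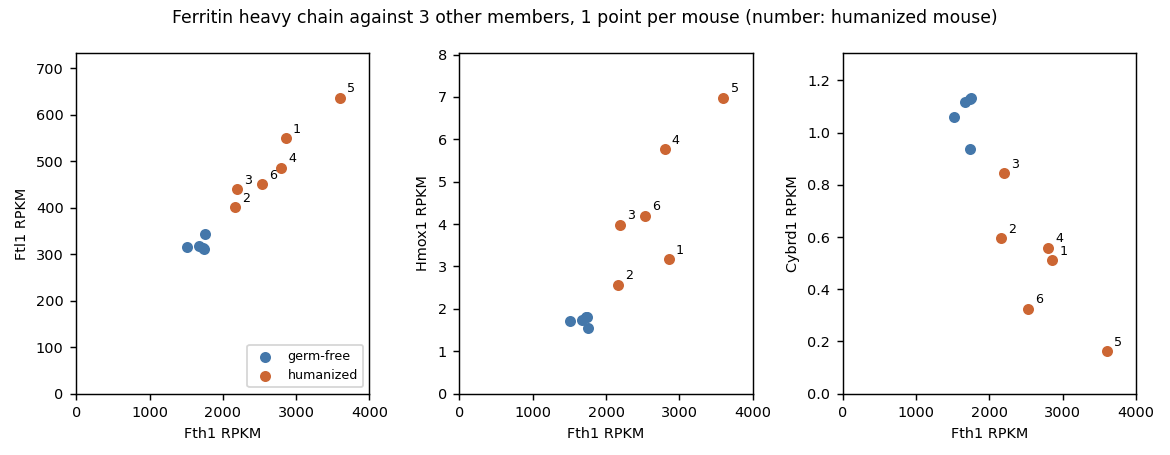
RPKM of Ftl1, Hmox1 and Cybrd1 (vertical axes) against RPKM of Fth1 (horizontal axes), with 1 point per mouse, germ-free in blue and humanized in orange with the mouse number. Humanized mouse 5 has the highest Fth1 (3599), Ftl1 (637) and Hmox1 (6.98) and the lowest Cybrd1 (0.162).

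Tfrc encodes transferrin receptor 1 and lies on chromosome 16 from 32608920 to 32632794. It had 21.8, 41.9, 23.5, 28.6 and 34.1 RPKM in germ-free mice. Humanized mice had 40.6, 37.9, 30.4, 33.9, 31.8 and 32.3 RPKM, all inside the germ-free range. The means were 30.01 ± 8.21 and 34.5 ± 3.96 RPKM (LFC = 0.20, SE 0.15, FDR = 0.381). With a coefficient of variation of 27.4%, Tfrc varied most among the 9 genes in germ-free mice, in which the median over all genes was 10.4%. The interval of its LFC was −0.10 to 0.50. Single mice moved the value: it was 0.35 (FDR = 0.0439) without germ-free mouse 2, 0.11 (FDR = 0.699) without germ-free mouse 1 and 0.12 (FDR = 0.664) without germ-free mouse 3, and it was not called in any of these. Transferrin receptor is also known to be high in dividing cells, and none of the 10 proliferation markers was called by edgeR's exact test, its quasi-likelihood test or DESeq2, with 0 at an unadjusted p under 0.05.

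Cybrd1 encodes duodenal cytochrome b, a membrane reductase that converts ferric to ferrous iron, on chromosome 2 from 71117923 to 71142926. It was the least abundant of the 9 in both groups. Germ-free mice had 1.12, 1.13, 1.13, 0.936 and 1.06 RPKM, from 312 to 396 reads. Humanized mice 1 to 6 had 0.510, 0.595, 0.846, 0.558, 0.162 and 0.325 RPKM, from 41 to 214 reads. All humanized mice were below all germ-free mice, with a 5.23-fold range among themselves. The means were 1.08 ± 0.0835 and 0.499 ± 0.235 RPKM, 2.16-fold lower in humanized mice (LFC = −1.11, SE 0.31, FDR = 0.00390).

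The call of Cybrd1 was near the threshold. It was lost with the quasi-likelihood test (FDR = 0.0180), which called 13.6% of all genes, and on leaving out germ-free mouse 1, 2, 3 or 5 or humanized mouse 1 or 6 (FDR = 0.0114 to 0.0143). Fibroblast markers were lower in humanized mice too, among which mouse 3 had the highest and mouse 5 the lowest value of both. Among germ-free mice the order was the other way, since mouse 4 had the highest marker sum (1939 CPM) and the lowest Cybrd1 (5.00 CPM), and mouse 2 the lowest sum (1415 CPM) and the highest Cybrd1 (6.06 CPM). Cybrd1 CPM per 1000 CPM of fibroblast markers was 2.58 to 4.28 in germ-free and 2.79 to 6.60 in humanized mice, so on this scale the groups overlapped, and the part of fibroblasts in the fall of Cybrd1 was not tested. A stretch of its transcript also matched 339 other annotated genes at 95% identity or more over at least 101 bases, and how reads with several matches were treated is not given in the sources used here.

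No change was detected in the members of heme synthesis. Alas1 encodes the ubiquitous first and rate-limiting enzyme, on chromosome 9 from 106233455 to 106248126. It had 19.7, 25.9, 23.5, 23.2 and 27.5 RPKM in germ-free mice and 29.2, 29.3, 23.5, 23.6, 25.5 and 27.4 RPKM in humanized mice. The means, 24.0 ± 2.99 and 26.4 ± 2.62 RPKM, differed by less than the SD of either group (LFC = 0.14, SE 0.09, FDR = 0.330). Fech encodes ferrochelatase, the last enzyme, on chromosome 18 from 64456550 to 64489066. It had 21.5, 21.9, 19.6, 20.1 and 20.1 RPKM in germ-free mice and 20.3, 18.9, 17.7, 22.2, 25.1 and 19.7 RPKM in humanized mice. Its means were 20.6 ± 1.03 and 20.7 ± 2.63 RPKM (LFC = 0.00, SE 0.08, FDR = 1), and the interval of its LFC ran from −0.16 to 0.16.

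On the deposited lengths the order of levels was the same in both groups: Fth1, Ftl1, Tfrc, Alas1, Fech, Blvrb, Blvra, Hmox1 and Cybrd1. Of the neighbours in this order, Alas1 and Fech had ranges over mice that met in both groups. The ranges of Tfrc and Alas1 met in germ-free mice, and those of Blvra and Hmox1 in humanized mice. The ranges of all other neighbours were apart. The deposited length differs from the merged exons of GENCODE M21 for 5 genes: 866 and 3469 bases for Fth1, 2901 and 13838 for Fech, 1414 and 2782 for Blvrb, 4310 and 6174 for Alas1, and 2161 and 1751 for Hmox1. With the latter lengths, an alternative chosen after seeing the data, Fech had 4.33 RPKM in both groups and fell behind both reductase genes. In humanized mice it also fell behind Hmox1 (5.49 RPKM). Fth1 then had 420 RPKM in germ-free and 672 RPKM in humanized mice, nearer to Ftl1 at 320 and 494 RPKM. Blvrb then had 5.25 RPKM in germ-free mice, below Blvra, and 7.22 RPKM in humanized mice, above it, so the order depends on the gene model. Fold changes do not.

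Around the group means, the genes that rose did not all vary together. Over the 11 mice, deviations of log2 CPM from the group mean had a Pearson r of 0.919 for Fth1 and Ftl1, 0.706 for Fth1 and Hmox1, and 0.876 for Fth1 and Fech. Blvrb had lower values, 0.607 with Ftl1, 0.513 with Fth1 and 0.176 with Hmox1. Fth1 and Cybrd1 had the lowest, −0.782. The values compared share their libraries and depth, and humanized mouse 5 moved several of them. Without it, an alternative chosen after seeing the data, r was 0.810 for Fth1 and Ftl1, 0.709 for Fth1 and Fech, 0.412 for Fth1 and Hmox1, and −0.409 for Fth1 and Cybrd1. The r of Blvrb was then 0.488 with Ftl1, 0.328 with Fth1 and −0.154 with Hmox1, and the lowest pair was Hmox1 and Alas1 (−0.569). The search for similar genes was made with all 11 mice, left out immunoglobulin segments and was not repeated without humanized mouse 5. With so many genes and so few mice, high values of r can arise by chance, so the genes below are only the top of a ranking. Searched over 10358 or 10359 genes with a mean CPM of at least 10, the deviations of Hmox1 were most like those of Deaf1 (r = 0.959) and Gm15998 (r = 0.949), and those of Fth1 most like Fam134a (r = 0.972) and Tmem98 (r = 0.970). For Ftl1 they were Gm22133 (r = 0.985), which lies inside it, and Rplp0 (r = 0.966). Tfrc was nearest to Dnajc2 (r = 0.896) and Hmox2 (r = 0.893), and Cybrd1 to Stox2 (r = 0.974) and Tril (r = 0.973). Alas1 was nearest to Ripk4 (r = 0.943) and Aqr (r = 0.937), and Fech to Tmem50a (r = 0.979) and Tmem30b (r = 0.977). Blvra was nearest to Cdkn2aipnl (r = 0.941) and Tuba1c (r = 0.912), and Blvrb to Commd9 (r = 0.903) and Emc8 (r = 0.879).

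The other genes of the pathway were taken from lists of 86 genes, of which 80 were tested. Of these, 19 rose and 5 fell, where 9.20% and 10.1% of all genes did. The lists too were chosen with earlier results of these data known, so no excess is read from these counts. In heme synthesis 1 of 7 enzymes beyond the members was called. This was Alad, which joins aminolevulinate into porphobilinogen, with 31.2 ± 1.09 RPKM in germ-free and 42.2 ± 5.77 RPKM in humanized mice (LFC = 0.43, SE 0.08, FDR = 7.08e-05). Under epithelial scaling it was not called (FDR = 0.236), nor was it with total counts (FDR = 0.0147). Alas2, the erythroid form of the first enzyme, had 0.641 and 0.735 RPKM (FDR = 0.719), and the 4 tested hemoglobin genes were not called either.

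**Figure D3:**
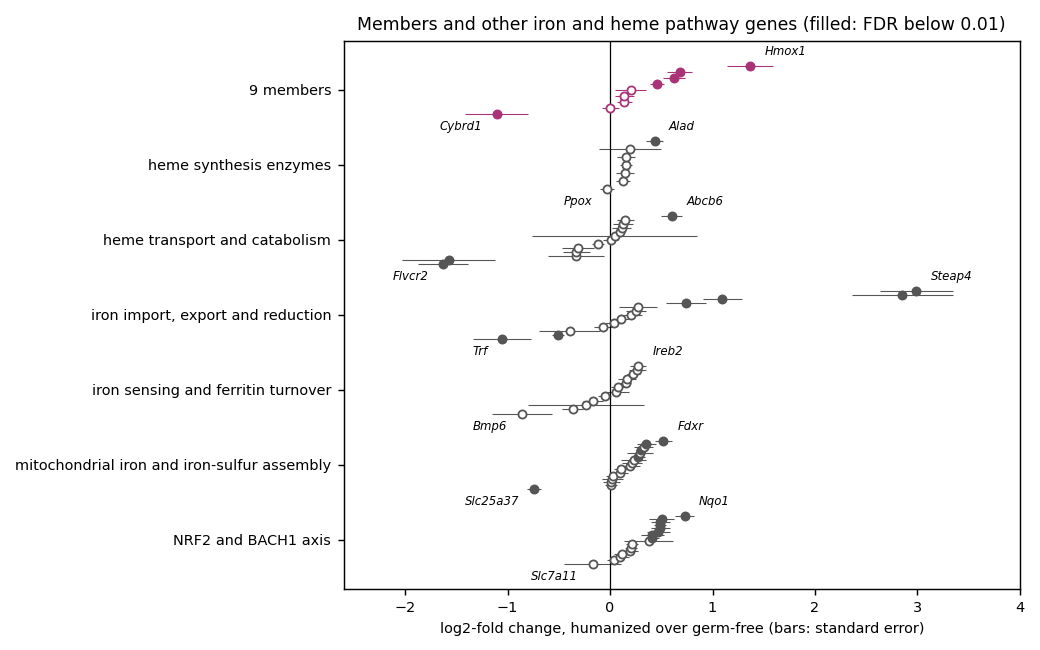
LFC of humanized over germ-free mice (horizontal axis, log2) for the 9 members (purple) and for the tested genes of each pathway list (grey), with bars for the SE and filled points for FDR below 0.01; the lowest and highest gene of each row is named. Called points lie to both sides of 0 for heme transport, iron transport and mitochondrial iron, and only to the right for the NRF2 list.

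Of 13 tested genes in the list of heme transport and catabolism, which also holds Hmox2, 1 rose and 2 fell. Abcb6, a porphyrin transporter, rose from 15.3 ± 1.21 to 23.2 ± 3.69 RPKM (LFC = 0.60, SE 0.10, FDR = 2.60e-06). Flvcr2, a relative of the heme exporter gene Flvcr1, fell from 0.311 ± 0.0395 to 0.0993 ± 0.0338 RPKM (LFC = −1.63, SE 0.24, FDR = 7.80e-09). Cd163, the macrophage receptor for hemoglobin bound to haptoglobin, was 2.98-fold lower (LFC = −1.58, SE 0.45, FDR = 0.00454). Its call was lost without germ-free mouse 1, 4 or 5 or humanized mouse 1 or 2, with FDR values up to 0.0219, and with the quasi-likelihood test (FDR = 0.0219).

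Of 13 tested genes of iron transport and reduction, 4 rose and 2 fell. Slc40a1, the ferroportin gene whose IRE is shown above, rose 2.14-fold from 23.4 ± 1.38 to 50.0 ± 17.6 RPKM (LFC = 1.09, SE 0.19, FDR = 4.33e-07). Steap4, a metalloreductase known to respond to inflammation, rose 7.95-fold from 3.27 ± 1.19 to 25.98 ± 11.3 RPKM (LFC = 2.99, SE 0.36, FDR = 1.06e-14). Ltf, the gene of the iron-binding protein lactoferrin, was at a low level and rose from 0.0272 ± 0.0219 to 0.197 ± 0.0406 RPKM (LFC = 2.85, SE 0.49, FDR = 7.94e-12). Steap1, named here after its value was seen, also rose (LFC = 0.74, FDR = 0.00674), but not by the quasi-likelihood test (FDR = 0.0156).

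Slc39a14, a zinc transporter that also carries iron, fell from 7.39 ± 0.366 to 5.20 ± 0.356 RPKM (LFC = −0.51, SE 0.06, FDR = 2.43e-10). Trf, the transferrin gene, was 2.08-fold lower (LFC = −1.05, SE 0.28, FDR = 0.00196), a call lost without germ-free mouse 4 (FDR = 0.0145) and with the quasi-likelihood test (FDR = 0.0153). Slc11a2, the transporter of ferrous iron that works beside the reductase of Cybrd1 in the duodenum, had LFC = 0.27 (FDR = 0.306). Heph, the ferroxidase that works with ferroportin, had LFC = 0.20 (FDR = 0.206).

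None of 12 tested genes of iron sensing and ferritin turnover was called by edgeR's exact test or its quasi-likelihood test, with 6 at an unadjusted p under 0.05 in each. DESeq2 called 3 of them, Ireb2, Pcbp2 and Hfe. Ireb2, which encodes iron regulatory protein 2, came nearest in the exact test with 28.7 ± 1.06 and 34.7 ± 3.85 RPKM (LFC = 0.27, FDR = 0.0105). Aco1, which encodes the other iron regulatory protein, had LFC = 0.08 (FDR = 0.547), and Ncoa4, the receptor that takes ferritin to the lysosome, had LFC = 0.27 (FDR = 0.0268). Hamp, the hepcidin gene, did not pass the filter.

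In mitochondrial iron handling and iron-sulfur assembly, 4 of 16 genes rose and 1 fell. Slc25a37, mitoferrin 1, which carries iron into mitochondria, fell from 21.3 ± 1.39 to 12.7 ± 1.19 RPKM (LFC = −0.74, SE 0.07, FDR = 3.73e-16). Its relative Slc25a28, mitoferrin 2, had 11.8 and 11.9 RPKM (FDR = 0.953). Fdxr, ferredoxin reductase, rose 1.43-fold (LFC = 0.52, FDR = 6.98e-05), and Nfs1, the desulfurase that supplies the sulfur, rose 1.24-fold (LFC = 0.30, FDR = 1.55e-04). Hspa9, a chaperone of cluster transfer, rose 1.21-fold (LFC = 0.28, FDR = 0.00289), which was not called without germ-free mouse 1, 3 or 4 or humanized mouse 1 or 2 (FDR up to 0.0195). Fdx1, a ferredoxin named after its value was seen, also rose (LFC = 0.35, FDR = 0.00502), but not by the quasi-likelihood test (FDR = 0.0125). Epithelial scaling ended the calls of Fdxr, Nfs1 and Hspa9, with FDR values of 0.229, 0.737 and 0.879.

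Hmox1 and the ferritin genes are known targets of the oxidative stress regulator NRF2, and BACH1, which binds heme, represses them. Of 16 genes of the NRF2 and BACH1 list, 8 rose and none fell, with a median LFC of 0.40, and 6 rose by the quasi-likelihood test. Several of its genes were named by the study from these samples, so the list is not independent evidence of a direction. Nqo1, a quinone reductase, rose from 23.7 ± 1.54 to 39.2 ± 5.17 RPKM (LFC = 0.73, SE 0.09, FDR = 1.01e-10). G6pdx, the first enzyme of the pentose phosphate pathway, had LFC = 0.49 (FDR = 8.52e-09), and Txnrd1, thioredoxin reductase, had LFC = 0.41 (FDR = 2.37e-06). Epithelial scaling ended both calls (FDR = 0.0842 and 0.220). The regulators themselves were not called: Nfe2l2, which encodes NRF2, had LFC = 0.12 (FDR = 0.383), Keap1 had LFC = 0.09 (FDR = 0.556) and Bach1 had LFC = 0.04 (FDR = 0.779).

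Blood in the tissue was compared through erythroid markers, since red cells hold heme and transcripts of heme enzymes. Of 7 tested markers 1 fell, Epor, a call that the quasi-likelihood test did not make (FDR = 0.0259), and none rose. Their summed CPM was 36.7 to 90.2 in germ-free and 38.0 to 111 in humanized mice, ranges that overlapped, and the defining marker Gata1 had at most 6 reads in any mouse.

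**Figure D4:**
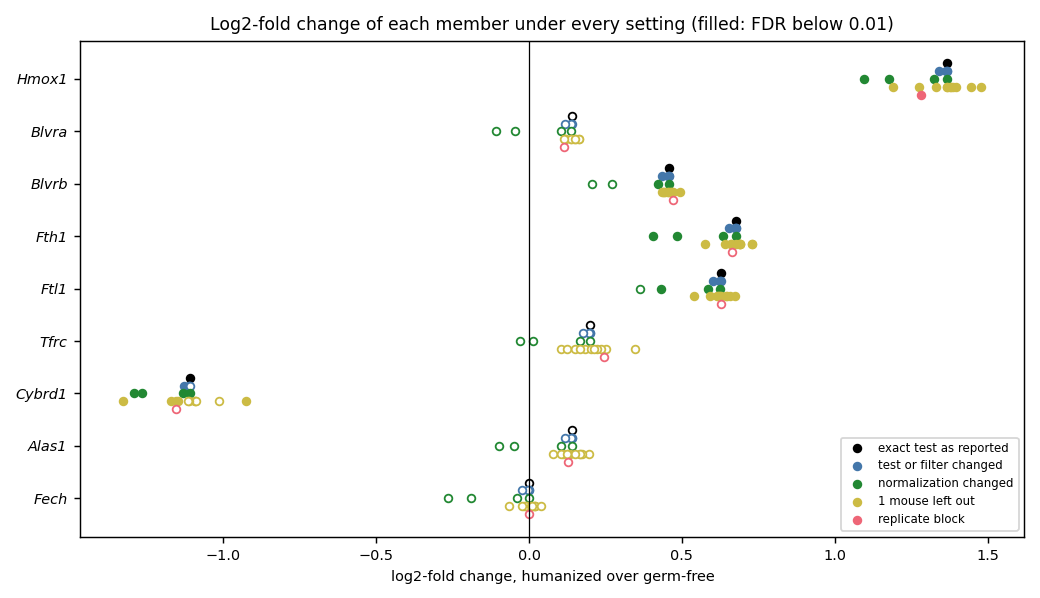
LFC of each member (horizontal axis, log2, humanized over germ-free) as reported and with the test, filter, normalization, mice or replicate block changed, with 1 point per setting and filled points for FDR below 0.01. Hmox1 lies between 1.096 and 1.48 and is filled throughout, while the points of Fech, Alas1, Blvra and Tfrc are open and lie to both sides of 0.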

How the data were processed

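RNA of 11 mouse colons was sequenced with 101 bp paired-end reads. The submitters' processing notes name bcl2fastq 2.17.1.14, Bowtie2 2.2.3 and TopHat2 2.1.0 on build mm10. The authors counted reads per gene with featureCounts (Subread 1.4.6-p5) and deposited the raw counts of 43346 genes with a gene length for each. The strand setting of the counting is not given in the sources used here. A column was assigned to a mouse by its title, and no batch is named. Replicates are different mice, and no pair within a group agreed within counting noise.

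Following the methods of the study, low genes were removed by filterByExpr with default settings (a count of at least 10, 15 in total), and the rest were normalized with TMM and compared with the exact test of edgeR 4.0.16 in R 4.3.3, with Benjamini-Hochberg correction over all 19863 tested genes. Log2 CPM used a prior count of 2. RPKM used the deposited length. Lists held fixed genes, and 3 list genes were found by Ensembl identifier under an older symbol. Named were all members, up to 3 genes per list and direction with the lowest FDR, and the 2 genes with the most similar deviations. Any further pathway gene was picked with its value in view. The members and lists were chosen with earlier results of these data known. Alternatives were the quasi-likelihood test, DESeq2 1.42.0, other scalings, filters and thresholds, each mouse left out, and a replicate block. Sequences are from GENCODE M21, and near copies were sought with BLAST. The result for 1 list of transcripts is not reported here.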

Additional observations from a re-analysis of the deposited data

Results flagged for a closer look

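Of 20 sets of values checked, 9 genes and the ratio of the ferritin chains in each group, 2 held a mouse far from the rest by Dixon's criterion, and chance flags about 1 in 20. Germ-free mouse 2 had 343 RPKM of Ftl1, and the germ-free mouse nearest to it 318 RPKM. Germ-free mouse 3 had 11.3 RPKM of Blvrb, and the nearest one 10.2 RPKM. Both mice lay below every humanized mouse for the gene concerned.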

How the results depend on the processing

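Hmox1 was called under all alternatives tried, with LFC values from 1.096 to 1.48. The number of members that rose, 4, became 2 under epithelial scaling, 1 with an absolute LFC above 1 and 1 with the replicate block. The number that fell, 1, became 0 with the quasi-likelihood test, 0 with the replicate block and 0 without it in the mice numbered 1 to 5, and was 0 to 1 on leaving out each mouse. Of the other pathway genes, the 19 that rose became 9 with total counts, 5 under epithelial scaling, 3 with an absolute LFC above 1 and 6 with the replicate block (12 in the same 10 mice without it). The 5 that fell became 3 with the quasi-likelihood test, 9 with total counts, 3 with an absolute LFC above 1 and 3 with and without the block, and were 3 to 6 on leaving out each mouse. Total counts and epithelial scaling shifted the median LFC of all genes to −0.18 and −0.24 and the share of called genes that were higher from 47.8% to 17.6% and 14.7%. Relative to that median, Blvrb had 0.45 and Ftl1 0.61 and 0.60 under these scalings. The cause of these differences was not tested. Under the block Fth1 (LFC = 0.66, FDR = 0.0244), Ftl1 (LFC = 0.63, FDR = 0.0127) and Blvrb (LFC = 0.47, FDR = 0.0106) were not called, while their LFC moved by less than its SE. The numbers name different animals, and what else they stand for is not given in the sources used here. Same-numbered deviations had r from −0.205 to 0.138, and 1 of 5 germ-free mice matched its own number best. Whether same-numbered mice shared a step of collection or preparation was not tested. Leaving out each mouse gave a difference in the log2 ratio of ferritin chains of 0.02 to 0.07 (exact permutation p from 0.183 to 0.743), and pairing by number gave 0.04. The alternatives that summed Ftl1 copies and dropped the block from numbers 1 to 5 were chosen after seeing the data. Among the 9 genes low counts limit Cybrd1 most, with 41 reads in humanized mouse 5, while Ltf and Flvcr2 had under 10 reads in at least 1 mouse.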
